A study of Mus musculus with 2 samples.

Results

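Mitotic transit-amplifying cells of the mouse ileum were taken as the cells with no UMI of *Lgr5*, the receptor gene that marks crypt base stem cells, and at least 1 UMI of 4 or more of 8 genes of mitosis (*Cdc20*, *Ube2c*, *Ccnb1*, *Plk1*, *Aspm*, *Kif22*, *Anln* and *Ska1*). A UMI (unique molecular identifier) counts 1 captured RNA molecule. The rule found 914 of 5408 cells (16.9%). Of these, 578 came from the wild type (WT) library of 3402 cells and 336 from the TNFAIP8-/- (*Tipe0*-/-, TKO) library of 2006 cells. The mice were on a C57BL/6 background and 8 weeks old, and the study describes their intestine as undamaged. According to a figure legend of the study, 3 mice per group were pooled before sequencing, so that each genotype was measured once and no test between genotypes was possible. All intervals below cover 95% counting error only and not the difference between mice.

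The lower and middle crypt holds the dividing cells of the intestinal epithelium. Stem cells at the crypt base give rise to transit-amplifying progenitors, which divide several times, lose stem cell transcripts and then turn into absorptive enterocytes or into secretory goblet, Paneth, enteroendocrine and tuft cells. On entry into mitosis, cyclin B with CDK1 drives chromosome condensation and spindle assembly, and the anaphase-promoting complex with its activator CDC20 and the ubiquitin-conjugating enzyme UBE2C then degrades cyclin B so that chromosomes separate. TNFAIP8 (TIPE0) belongs to a small family of proteins that bind phosphoinositides and act on PI3K and Akt signaling.

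The libraries held 38127808 UMIs (WT) and 23897126 UMIs (TKO), with a median of 7760 and 7308 UMIs per cell. The mitotic cells were deeper than the rest, with a median of 15276 (WT) and 16679 (TKO) UMIs against 6668 and 6308 in all other cells, and a median of 3652 and 4046 detected genes against 1977 and 2022. Mitochondrial transcripts took 5.19% and 6.84% of their UMIs against 7.05% and 9.19% in the other cells. The number of rule genes detected moved with depth: cells without an *Lgr5* UMI that showed exactly 4 rule genes had a median of 11301 (WT) and 10195 (TKO) UMIs, and those that showed all 8 had 23546 and 25173. Every cell was therefore also thinned to 3000 UMIs without replacement. At that depth a mean of 3.02% of WT cells (SD over 200 draws 0.244) and 2.86% of TKO cells (SD 0.329) met the rule. In a single draw the cells that met it had a median of 8436 and 8109.5 UMIs before thinning, against 7760 and 7308 UMIs over all cells.

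**Figure D1:**
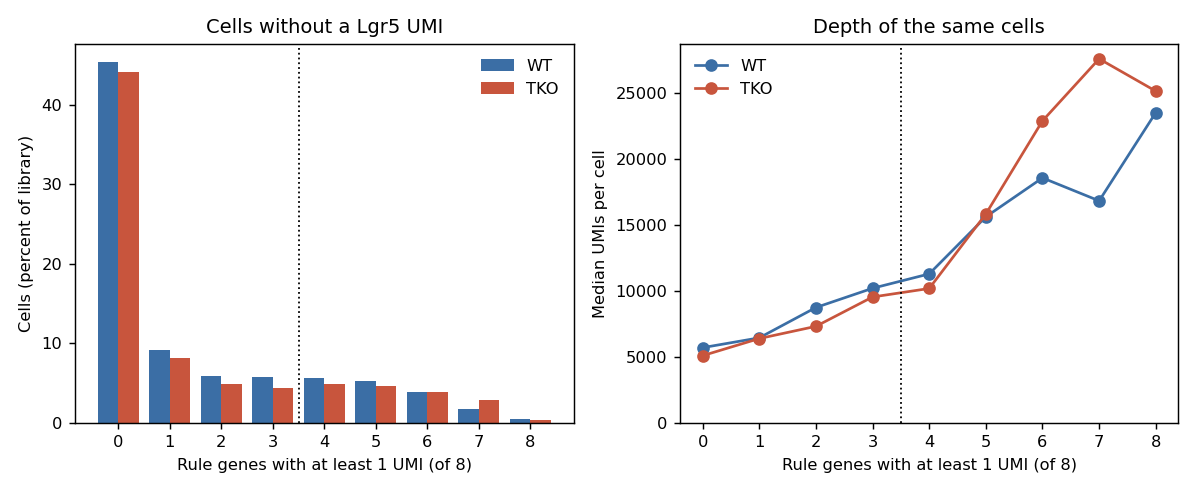
Left, cells without an Lgr5 UMI as a percent of all cells of the library, by the number of the 8 rule genes with at least 1 UMI; right, the median UMIs of the same cells. Bars and lines are the WT and TKO libraries, and the dotted line is the threshold of 4 genes. The largest class, with 0 rule genes, holds 45.4% (WT) and 44.1% (TKO) of the cells, and the median depth is higher at 8 genes than at 0 genes in both libraries.

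Mitotic cells made up 17.0% of the WT library (exact binomial interval 15.7 to 18.3) and 16.7% of the TKO library (15.1 to 18.5). The difference, TKO minus WT, was -0.240 percentage points with an interval of -2.28 to 1.85 that covers the counting of cells and not the spread between mice. After thinning, the mean difference over the 200 draws was -0.155 points (SD 0.403). A single earlier draw had given 86 cells (2.53%) in WT and 74 cells (3.69%) in TKO, a difference of 1.16 points with a counting interval of 0.218 to 2.19. The 200 draws were added after its values were seen, 0 of them had a difference as large, and no difference is read from it. In villus cells, which no longer divide and were gated on brush border genes, 30 of 802 WT cells (3.74%) and 35 of 420 TKO cells (8.33%) without an *Lgr5* UMI met the rule. The gated cells had a median of 7558 and 7154 UMIs, and those that met the rule 20612 and 32988 UMIs. A total of 4 in each library (0.499% and 0.952%) met it after thinning in that first draw. Between the libraries 9 cell barcodes were shared, 5 of them held by a mitotic cell of either library and 0 by mitotic cells of both.

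The 8 rule genes chose the cells, so their levels are a description. *Cdc20*, the activator of the anaphase-promoting complex, stood at 139.7 UMIs per 1000000 (CPM; 132 to 147) in WT and 124 CPM (116 to 133) in TKO mitotic cells, against 26 and 24.7 CPM in the other cells. *Ube2c*, its ubiquitin-conjugating enzyme, stood at 347 and 276 CPM against 72.8 and 69.8 CPM. *Ccnb1*, which encodes cyclin B1, stood at 110.0 and 97.6 CPM against 21.2 and 23.4 CPM. The log2 ratio of mitotic over other cells lay between 2.16 (*Ska1*, of the kinetochore) and 2.47 (*Aspm*, of the spindle pole) in WT, and between 1.84 (*Ska1*) and 2.33 (*Cdc20*) in TKO. The kinase gene *Plk1* (100.3 and 81.7 CPM), the chromosomal kinesin gene *Kif22* (65.4 and 59.6 CPM) and *Anln* (40.6 and 44.9 CPM), which encodes the cytokinesis protein anillin, lay inside these ranges.

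Values just inside and just outside the threshold are given as a description, since the rule sorted these cells. With exactly 4 rule genes detected, the rule gene *Ube2c* was at 319 (WT) and 273 CPM (TKO), and with exactly 3 it was at 196 and 160.5 CPM. *Cdk1*, which was not part of the rule, was at 136 and 127 CPM inside the threshold and at 88.3 and 88.4 CPM outside it.

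The promoters of the rule genes can be read beside these values. Genes of mitosis are known to carry a cell cycle homology region (CHR, searched as TTTGAA or TTTAAA) and CCAAT boxes (CCAAT) close to their start. Both motifs were searched on both strands in the 300 bases from 250 before to 50 after the RefSeq start, on GRCm38.p6. TTTAAA is its own reverse complement and was counted once. A CCAAT box can share bases with another on the opposite strand or with a CHR, and each such match was counted. Of the rule genes, 7 had a promoter that was searched, and a CHR was found in 7 of 7 against 30.6% of 27025 promoters in all and 22.5% of the 8895 promoters of the genes compared here. At least 2 CCAAT boxes were found in 5 of 7 (71.4%) against 13.3% and 17.1%. Stretches of 100 bases that end before the first annotated start are shown for 3 rule genes and for *Cdk1*, which the rule did not use. They run 5′ to 3′ on the strand of the gene, with both motifs in capitals (ATTGG is CCAAT on the opposite strand).
Cdc20 chr4:118437353-118437452 (- strand): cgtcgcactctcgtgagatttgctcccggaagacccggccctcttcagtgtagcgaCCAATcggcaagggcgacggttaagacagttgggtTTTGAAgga
Plk1 chr7:122159335-122159434 (+ strand): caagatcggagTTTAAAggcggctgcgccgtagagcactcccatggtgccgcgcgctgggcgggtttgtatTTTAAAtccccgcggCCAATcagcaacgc
Ube2c chr2:164769798-164769897 (+ strand): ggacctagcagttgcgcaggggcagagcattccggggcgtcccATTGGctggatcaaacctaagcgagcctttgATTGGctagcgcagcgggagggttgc
Cdk1 chr10:69352939-69353038 (- strand): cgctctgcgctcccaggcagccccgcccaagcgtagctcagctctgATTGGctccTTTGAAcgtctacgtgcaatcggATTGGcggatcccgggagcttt
In *Cdc20* the CHR lies 18 to 13 bases before the RefSeq start with a CCAAT box at 53 to 49. *Plk1* has a CHR at 89 to 84 and another at 29 to 24, and a further CHR 30 to 35 bases after the start falls past the printed end. The *Ube2c* stretch shows CCAAT boxes at 88 to 84 and 57 to 53, and its CHR, at 29 to 24, falls past the printed end. *Cdk1* has a CHR at 71 to 66 between a pair of CCAAT boxes, and a further CHR, at 15 to 10, falls past the printed end. In the lists of mitosis genes named below, a CHR was found in 56 of 88 promoters (63.6%) and at least 2 CCAAT boxes in 42 (47.7%), while the DNA replication list held a CHR in 9 of 33 (27.3%). A match describes the letters of the window and does not show that a factor binds there.

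Beyond the rule genes, the higher transcripts of the mitotic cells included many of chromosome segregation, and most markers of enterocytes and Paneth cells were lower. Of 11665 genes with at least 50 UMIs, 190 (1.63%) were more than 2-fold higher in mitotic than in other cells in both libraries and 480 (4.11%) were more than 2-fold lower. Of the 182 higher genes outside the rule 73 belonged to the mitosis lists. The median log2 ratio over all these genes was 0.29 in WT and 0.18 in TKO. With these medians subtracted the counts were 108 and 618, so the split between higher and lower genes depends on the scaling. Since cell cycle genes chose the cells, the contrast has no test, and the counts below are descriptions.

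Among 112 genes of mitosis outside the rule, 73 were past 2-fold higher and 0 lower, with a median log2 ratio of 1.54 (WT) and 1.21 (TKO). Spindle, motor and midbody genes gave the most, with 29 of 34. In this list *Tpx2*, a spindle assembly factor, stood at 77.6 (WT) and 75.7 CPM (TKO) against 19.5 and 26.9 CPM in other cells. *Aurka*, the centrosomal Aurora kinase gene, stood at 46.9 and 43.8 CPM against 11.3 and 13.4 CPM. *Nusap1*, which encodes a microtubule-bundling protein, stood at 108 and 113 CPM against 30.4 and 40.4 CPM. Of the spindle checkpoint and kinetochore genes 20 of 27 were past 2-fold. *Birc5*, which encodes survivin of the chromosomal passenger complex, was 3.75-fold (WT) and 3.28-fold (TKO) higher, at 254 and 216 CPM. *Cenpf*, a kinetochore gene, was 3.79-fold and 2.95-fold higher, and *Cenpa*, which encodes the centromeric histone, stood at 184 and 152 CPM against 55.8 and 51.0 CPM.

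Of the cyclins, CDKs and regulators of mitotic entry 12 of 17 were past 2-fold higher. *Cdk1* was 4.03-fold (WT) and 3.16-fold (TKO) higher, at 158 and 153 CPM, and *Ccna2* (cyclin A2) stood at 151 and 147 CPM. *Ccnb2* (cyclin B2) stood at 117 and 111 CPM against 38.3 and 37.1 CPM. Chromosome condensation and chromatin genes passed in 10 of 21, among them *Top2a* (439 and 427 CPM), which encodes the topoisomerase that untangles sister chromatids, and *Mki67* (109 and 126 CPM), the gene of the Ki-67 antigen. Of 13 genes of the anaphase-promoting complex and its regulators only *Ube2s*, which extends ubiquitin chains, and *Espl1*, which encodes separase, passed. The core subunit gene *Anapc11* stood at 139.7 and 122 CPM against 78.9 and 78.4 CPM.

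**Figure D2:**
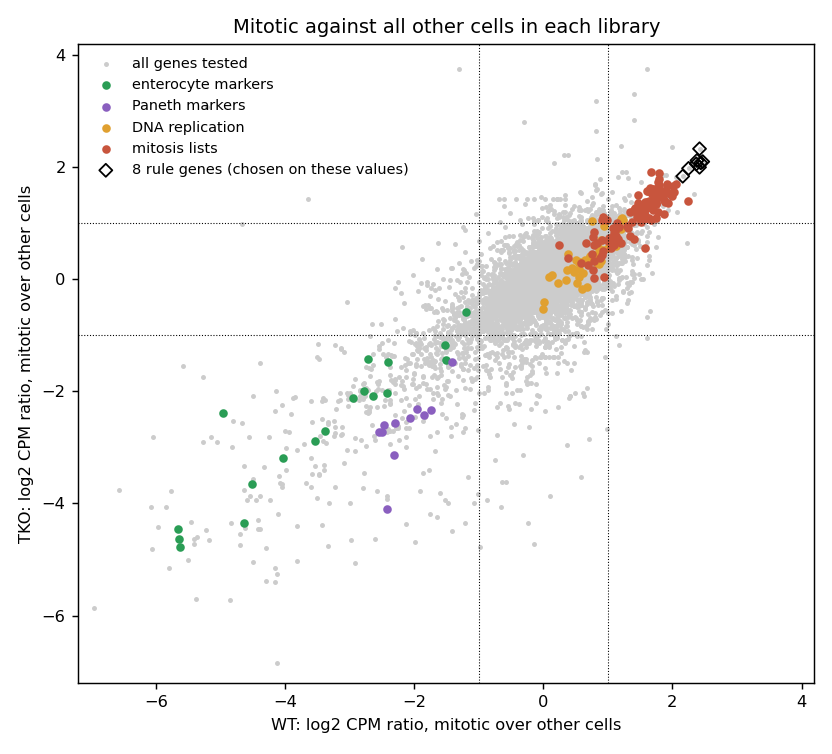
Each point is a gene with at least 50 UMIs, placed by its log2 CPM ratio of mitotic over all other cells in the WT library (horizontal) and in the TKO library (vertical); dotted lines mark 2-fold, and 2 genes (*Lgr5* and *Sema6a*) lie outside the axes. Mitosis genes sit at the upper right next to the rule genes, which were chosen on these values, and enterocyte and Paneth genes at the lower left.

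Genes of DNA replication were less far above the other cells. Of 43 replication and S phase genes, *Tyms* and *Tk1*, which make thymidine nucleotides, and the transcription factor gene *E2f8* were past 2-fold higher, and the list median was 0.69 (WT) and 0.34 (TKO). Of 11 replication-dependent histone genes 3 were past 2-fold higher. Among G1 cyclins and CDK inhibitors, 4 of 21 were lower: *Cdkn1a* (p21), *Cdkn1c*, *Cdkn2a* and *Ccng2*. *Cdkn1a*, which encodes an inhibitor that holds cells out of the cycle, stood at 42.7 and 48.2 CPM against 144 and 106 CPM in other cells. *Cdkn2d*, another inhibitor gene, was higher, at 25.5 and 19.8 CPM against 8.72 and 7.86 CPM.

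Absorptive transcripts were low relative to other cells. Of 18 enterocyte markers compared 17 were past 2-fold lower, with a median log2 ratio of -3.16 (WT) and -2.26 (TKO). *Apoa1*, which encodes an apolipoprotein of lipid export, was 50.3-fold (WT) and 21.9-fold (TKO) lower, at 22.8 and 54.3 CPM. *Anpep*, the brush border aminopeptidase N gene, was 49.7-fold and 25-fold lower. *Fabp6*, the ileal bile acid binding protein gene, was lower by a smaller factor, 6.21-fold and 4.23-fold, and still stood at 1480.3 and 2131 CPM. General epithelial genes such as *Epcam* (1371 and 1506 CPM) gave 0 of 11 past 2-fold either way.

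All 11 Paneth markers were past 2-fold lower in both libraries, the defensins and *Lyz1* (616 and 475 CPM against 3061 and 4146 CPM) among them. Few cells held most of these UMIs. The Paneth-rich mitotic cells described below, 63 in WT and 23 in TKO, held 5410 of 5819 and 2845 of 3076 *Lyz1* UMIs. Of *Defa24*, they held 94188 of 101851 and 32458 of 35713 UMIs. Mitotic cells rich in no secretory or immune list had *Lyz1* at 44.9 and 36.4 CPM. The Paneth list that defines the Paneth-rich cells holds *Lyz1* and *Defa24*, so these splits follow in part from how the cells were sorted. Several defensin genes are near-identical copies, so that reads may be split between them. Goblet markers gave 2 of 12 lower, *Fcgbp* and *Zg16*, and enteroendocrine markers 4 of 12 lower, *Gcg*, *Nts*, *Sst* and *Cpe*. Tuft markers gave 0 of 11 and secretory progenitor regulators 1 of 13 lower (*Neurod1*). Stem cell markers gave 3 of 21 lower (*Olfm4*, *Tnfrsf19* and *Gkn3*) and Wnt target genes 2 of 14 lower (*Nkd1* and *Tnfrsf19*). The rule itself set *Lgr5* to 0. *Slc12a2*, the most abundant stem cell marker of the list in these cells, stood at 234 and 271 CPM against 226 and 391 CPM.

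The remaining lists gave few calls. Genes of the PI3K and Akt pathway gave 0 of 31 past 2-fold, with *Akt1* at 122 and 106 CPM against 63.8 and 72.0 CPM. MHC class II and interferon-related genes gave 0 of 18, and *Maf* was the sole lower gene of 11 absorptive and regional transcription factors. Immediate early and heat shock genes gave 3 of 13 lower (*Fos*, *Fosb* and *Atf3*), with a list median of -0.89 (WT) and -0.59 (TKO). Of the fetal-like and revival genes 5 had enough UMIs, with *Areg* and *Ereg* lower and a median of -1.11 and -1.21, and *Clu*, *Gja1* and *Ctgf* were at 0 UMIs in the mitotic cells. T cell markers gave 0 of 12, and B cell and myeloid markers 1 of 9 lower (*Lyz2*). Of 4 Y- and X-linked genes compared 0 passed, and *Xist*, expressed from the inactive X chromosome of females, had 0 (WT) and 2 (TKO) UMIs in the mitotic cells.

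Detection after thinning, in the first draw, is set beside villus cells as a description, since the rule formed both groups. At 3000 UMIs per cell the rule gene *Ube2c* was detected in 61.9% (WT) and 58.9% (TKO) of mitotic cells and in 1.96% and 0.265% of villus cells. *Birc5*, outside the rule, was detected in 51.9% and 50% of mitotic cells and in 2.09% and 1.59% of villus cells. *Mki67* was detected in 32.9% and 40.5% of mitotic cells and in 0.782% and 1.33% of villus cells. The mitosis lists took a median of 1.63% (WT) and 1.67% (TKO) of the UMIs of a mitotic cell, with a range of 0.277% to 3.90% and 0.539% to 3.19%, against 0.210% and 0.211% in a villus cell.

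Lineage transcripts were unevenly spread among the mitotic cells. In the thresholds used here, chosen after the values were seen, a goblet-rich cell had at least 1% of its UMIs from the goblet list. This held for 162 WT cells (28.0%, 24.4 to 31.9) and 118 TKO cells (35.1%, 30 to 40.5), at a median of 19558 and 24390.5 UMIs. Among the other cells of the libraries 27.6% and 26.9% were goblet-rich, so the share in mitotic cells was close to that background in WT and above it in TKO. The mitotic cells were deeper than the other cells in both libraries. In the goblet-rich mitotic cells *Muc2*, the gene of the main goblet mucin, stood at 1993 (WT) and 2202 CPM (TKO), and *Atoh1*, the gene of the secretory fate factor, at 43.0 and 56.1 CPM. In the mitotic cells rich in no secretory or immune list, *Muc2* stood at 135 and 121 CPM and *Atoh1* at 11.7 and 8.74 CPM. These plain cells numbered 365 (63.1%) and 203 (60.4%) and carried *Ube2c* at 389 and 309.9 CPM, against 264 and 242 CPM in the goblet-rich cells. The libraries were not passed through a doublet caller here, and the part of doublets or of free RNA in the goblet-rich cells was not tested.

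Paneth-rich cells, by the same 1% threshold, numbered 63 (10.9%) in WT and 23 (6.85%) in TKO, of which 56 and 19 were also goblet-rich. Among the other cells of the libraries 19.2% (WT) and 11.6% (TKO) were Paneth-rich. Cells with at least 0.2% of enteroendocrine or tuft transcripts numbered 23 (3.98%) and 5 (1.49%), against 4.46% and 2.93% of the other cells. Immune-rich cells, with at least 0.2% of the T cell, B cell and myeloid lists, numbered 28 (4.84%) and 6 (1.79%). Of the other cells 3.01% and 1.08% were immune-rich. In the immune-rich mitotic cells *Gzma*, the granzyme A gene of cytotoxic lymphocytes, stood at 3859 CPM in WT and 0 in TKO. *Jchain*, the joining chain gene of plasma cells, stood at 960.2 and 1072 CPM. In the same cells *Cd74* stood at 1717 and 4930 CPM, while *Epcam* stood at 757 and 536 CPM and *Top2a* at 679 and 1036 CPM. Whether these droplets held dividing lymphocytes or more than 1 cell was not tested. The T cell list took 0.0250% and 0.00242% of all mitotic UMIs, with *Gzma* the most abundant in WT (905 UMIs) and *Ccl5* in TKO (72 UMIs), and up to 5.66% and 0.235% in 1 cell.

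The mitotic cells also varied in replication and absorptive transcripts. An S-phase gate of 8 replication genes was passed by 219 WT (37.9%) and 139 TKO mitotic cells (41.4%), against 15.1% and 21.5% of the other cells. The mitotic cells that passed had a median of 21012 and 26731 UMIs, against 11330 and 10369 UMIs in those that did not pass. The part of depth in passing the gate was not tested. In the mitotic cells past this gate *Mcm6*, a subunit gene of the replicative helicase, stood at 158 and 178 CPM. It stood at 55.7 and 53.4 CPM in the remaining mitotic cells, as the gate implies. *Cdk1*, outside both the rule and the gate, stood at 158 and 159 CPM against 159 and 146 CPM, and *Top2a* at 458 and 441 CPM against 421 and 408 CPM. *Fabp6* stood at 614 and 1404 CPM against 2327 and 3161 CPM. The villus gate was passed by 30 WT (5.19%) and 35 TKO (10.4%) mitotic cells, at a median of 20612 and 32988 UMIs. Enterocyte-rich cells, with at least 1% of their UMIs from the enterocyte list, numbered 19 (3.29%) and 18 (5.36%), with *Fabp6* at 12377 and 14039 CPM. *Fabp6* is the most abundant member of that list in the mitotic cells, so its level there follows in part from the threshold.

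Mitotic cells that did hold an *Lgr5* UMI numbered 176 in WT and 140 in TKO. The mitosis lists took 1.52% of UMIs in both libraries of the transit-amplifying cells and 1.38% and 1.36% in the *Lgr5*+ mitotic cells, and 0 of 112 mitosis genes were past 2-fold apart in either direction. Over all genes 172 of 10321 (1.67%) were higher and 150 (1.45%) lower in both libraries. Stem cell markers were lower in 10 of 21, Wnt targets in 6 of 14 and Paneth markers in 11 of 11, while 6 of 18 enterocyte markers were higher. Of the *Lgr5*+ mitotic cells 19.3% (WT) and 17.1% (TKO) were Paneth-rich, against 10.9% and 6.85% of the transit-amplifying cells. In the median *Lgr5*+ mitotic cell the Paneth list took 0.182% and 0.111% of UMIs, against 0.119% and 0.0579% in the median transit-amplifying cell. *Fabp6* stood at 1480.3 and 2131 CPM against 361 and 210.2 CPM in the *Lgr5*+ cells, and *Krt19*, a keratin gene, at 1536 and 1624 CPM against 693 CPM in each. *Mptx2*, a Paneth marker, stood at 177 and 38.1 CPM against 1298 and 476 CPM. The *Lgr5* condition formed these groups, and an *Lgr5* UMI can be missed in a shallow cell (median depth 16208 and 20988 UMIs in the *Lgr5*+ mitotic cells).

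S-phase cells without an *Lgr5* UMI, 261 in WT and 189 in TKO, had a median of 9479 and 9507 UMIs. Against them 87 of 10276 genes (0.847%) were higher in mitotic cells and 51 (0.496%) lower, and 37 of 112 mitosis genes were higher. The S-phase cells are cells that did not meet the rule, so lower levels of cell cycle genes such as *Cdc20* in them follow from how the groups were formed. *Cenpf*, outside the rule, stood at 152 and 132 CPM against 36.3 and 27.9 CPM. *Uhrf1*, which maintains DNA methylation during replication and was among the genes that gated the S-phase cells, stood at 53.1 and 57.9 CPM against 129 and 141 CPM. Replication genes outside the gate were lower in 3 of 35. More distant populations were further apart, with 793 (7.58%) genes higher and 198 (1.89%) lower of 10464 against the other *Lgr5*+ cells, and 2977 (28.4%) higher and 1213 (11.6%) lower of 10495 against villus cells.

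**Figure D3:**
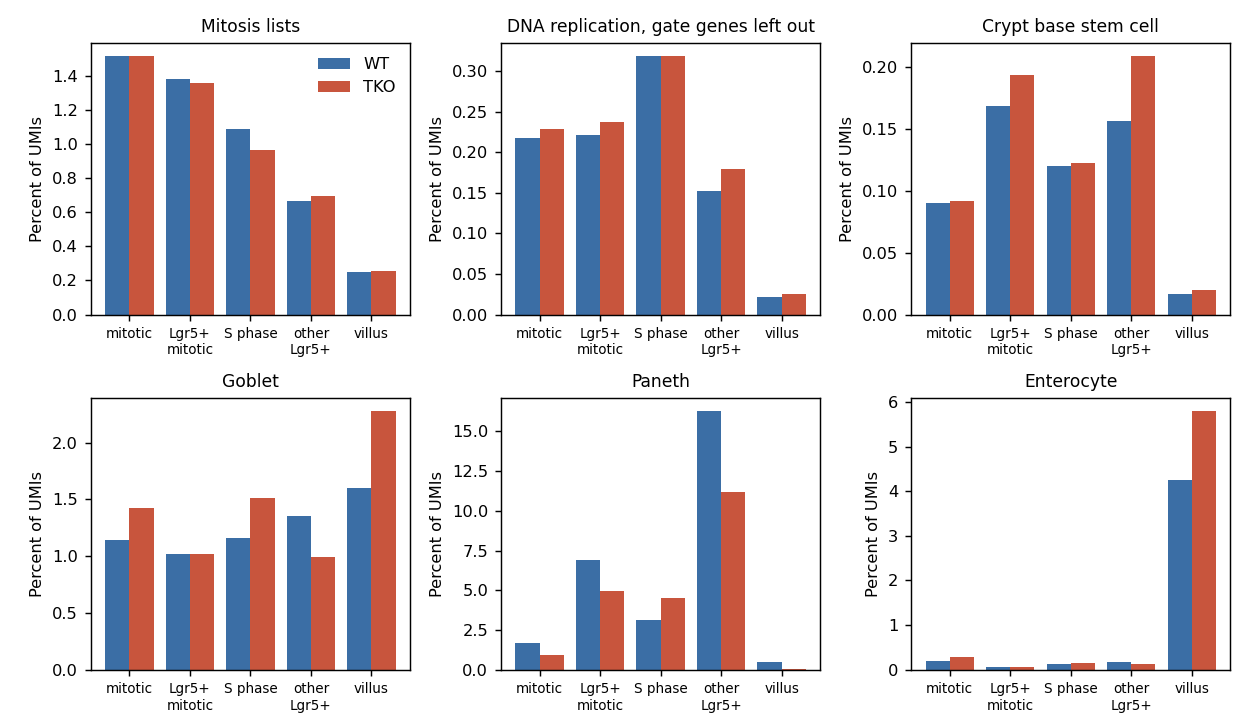
Percent of all UMIs taken by 6 gene lists in the mitotic cells, the *Lgr5*+ mitotic cells, the S-phase cells, the other *Lgr5*+ cells and the villus cells of the WT and TKO libraries, with 1 bar per library and axes from 0. Mitosis genes take 1.52% in both libraries of the mitotic cells, while replication genes are highest in S-phase cells, Paneth genes in the other *Lgr5*+ cells and enterocyte genes in villus cells.

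The comparison of the genotypes asked what the loss of TNFAIP8 leaves or changes in dividing progenitors. The targeted gene had 92 UMIs in the WT and 14 in the TKO mitotic cells, 9.74 and 2.16 CPM, a log2 ratio of -2.13 (-3.10 to -1.35), in the direction of the labels. In all other cells it stood at 9.76 and 2.47 CPM. Which part of the gene was deleted is not given in the sources used here, so the remaining UMIs do not show whether an intact transcript was left. Of 9832 genes with at least 50 UMIs in the mitotic cells, 73 (0.742%) were more than 2-fold higher in TKO and 151 (1.54%) lower, relative to a median log2 ratio of 0.08. In the other cells 48 (0.488%) and 184 (1.87%) of the same genes were past 2-fold. The higher calls shared 25 genes (34.2% of the mitotic and 52.1% of the other-cell calls) and the lower calls 107 (70.9% and 58.2%). These are differences between 2 libraries, with no replicate check.

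Cells of both libraries were chosen for detected mitosis genes, so the levels of these genes between the libraries are a description. Of 110 mitosis genes 0 were past 2-fold in either direction, which is near the share of all genes, with a median log2 ratio of TKO over WT of 0.01, and of 43 replication genes 0, with a median of 0.12. In the other cells the same medians were 0.31 and 0.41. The median over all genes compared was 0.18 in the other cells and 0.08 in the mitotic cells. *Mki67* was at 109 and 126 CPM (log2 ratio 0.21, 0.07 to 0.34). PI3K and Akt pathway genes gave 0 of 27, with *Akt1* at 122 and 106 CPM (log2 ratio -0.21, -0.35 to -0.07). *Ctnnb1* (β-catenin) stood at 258 and 289.7 CPM and *Krt20*, a keratin of differentiated cells, at 48.7 and 59.0 CPM. The other genes of the TIPE family had low counts, with *Tnfaip8l1* at 19.6 and 16.8 CPM and *Tnfaip8l3* at 7.41 and 6.18 CPM.

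Genes of antigen presentation and of the interferon response gave 11 of 17 past 2-fold lower in the TKO mitotic cells and 0 higher. The list median log2 ratio was -1.33 (-1.23 in the other cells). All 6 MHC class II genes of the list were among the 11, and *B2m* and *H2-K1* were not. *Cd74*, the invariant chain, stood at 1541 CPM in WT and 645 CPM in TKO. *H2-Aa*, an MHC class II chain, stood at 299.5 and 109.9 CPM (log2 ratio -1.45, -1.57 to -1.33). *Psmb8*, an immunoproteasome subunit, stood at 415 and 165 CPM. *Ifitm3*, an interferon-induced antiviral gene, stood at 706 and 142 CPM, 4.99-fold lower, and was detected in 86.5% of WT and 51.2% of TKO mitotic cells. Without cells rich in secretory or immune transcripts its log2 ratio was -2.37, beside -2.32 with them.

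*Retnlb*, on GRCm38 chromosome 16 (48816856 to 48818892, plus strand), encodes the goblet cell product RELMβ and was the gene furthest apart among those at 100 CPM or more in the higher library. It had 2371 UMIs (251 CPM) in WT and 92 UMIs (14.2 CPM) in TKO mitotic cells, a log2 ratio of -4.14 (-4.46 to -3.84), and was at 405 and 32.4 CPM in the other cells. A UMI of it was found in 188 of 578 WT (32.5%) and 22 of 336 TKO mitotic cells (6.55%), and after thinning in the first draw in 16.3% and 4.17% of mitotic, 18.3% and 2.75% of other and 7.95% and 0.531% of villus cells. The 10 richest mitotic cells held 38.4% and 73.9% of its UMIs. Of the 2371 UMIs in WT 2234 lay in goblet-rich cells (696 CPM against 21.4 CPM in plain cells). *Ly6a*, the gene of the SCA-1 surface antigen, stood at 114 and 26.1 CPM, and the gasdermin C genes *Gsdmc4* and *Gsdmc2* at 335 and 94.6 CPM and at 231 and 67.2 CPM. *AA467197* stood at 278 and 85.2 CPM. The Paneth product *Ang4* stood at 820.1 and 197 CPM, with 56.1% and 75.5% of its UMIs in the 10 richest cells. *Mptx2* stood at 177 and 38.1 CPM, with 91.2% and 95.5% of its UMIs in the 10 richest cells. Paneth markers gave 5 of 11 past 2-fold lower, beside the smaller share of Paneth-rich cells in TKO given above, among mitotic and among other cells.

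Among the 8 genes furthest apart in the other direction, *Zg16* was the sole one past 2-fold once the median ratio was subtracted. It encodes a lectin of goblet cell mucus and stood at 248 CPM in WT and 991 CPM in TKO (log2 ratio 2.0, 1.93 to 2.07), and at 1803 and 4392 CPM in the other cells. Few cells carried most of it: 57.3% and 53.0% of its UMIs lay in the 10 richest cells. Without cells rich in secretory or immune transcripts its log2 ratio was 1.22 (0.88 to 1.56). The goblet list that helped define those cells holds *Zg16*, so leaving them out removes its UMIs in part by construction. *Fabp2*, the intestinal fatty acid binding protein gene, stood at 164 and 341 CPM (log2 ratio 1.05, 0.96 to 1.15). *Oat*, an enzyme of ornithine metabolism, stood at 413 and 731 CPM, was detected in 97.4% and 99.1% of the cells and had a median of 6 and 12 UMIs per cell. *Aqp1*, a water channel gene, stood at 55.4 and 104 CPM. The other 4 were *Tstd1*, the mitochondrial *mt-Nd4l*, *Fcgbp* and *Rbp7*, at log2 ratios of 0.87 to 0.90.

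**Figure D4:**
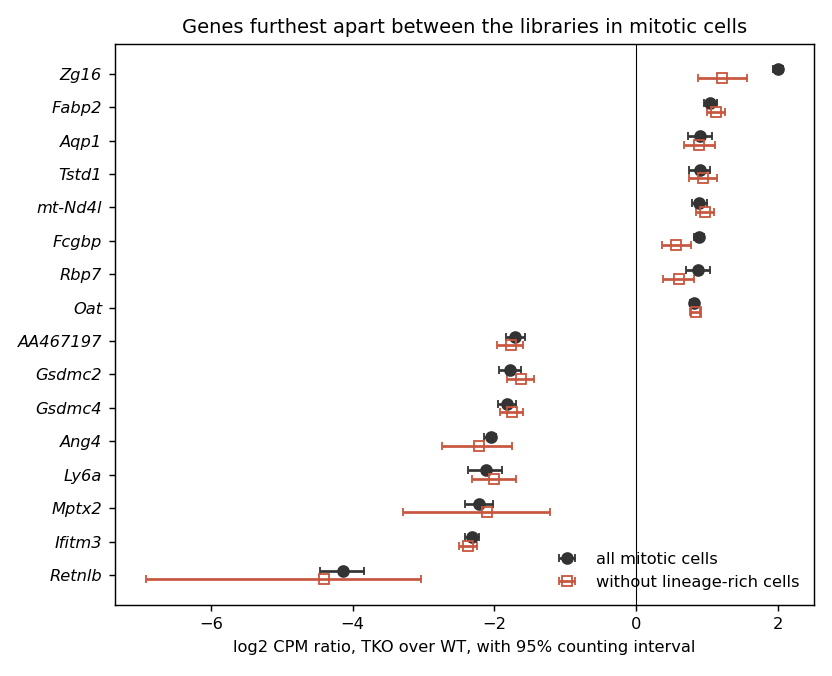
Log2 CPM ratio of TKO over WT in mitotic cells for the 8 genes furthest apart in each direction among those at 100 CPM or more in the higher library, with 95% counting intervals. Filled circles use all mitotic cells. Open squares leave out cells rich in goblet, Paneth, enteroendocrine, tuft or immune transcripts and keep enterocyte-rich cells. *Zg16* moves from 2.0 to 1.22 without those cells, and the 8 lower genes stay on the lower side. The lists that define those cells hold *Zg16*, *Fcgbp*, *Mptx2* and *Ang4*, so leaving the cells out removes UMIs of these genes in part by construction.

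**Figure D5:**
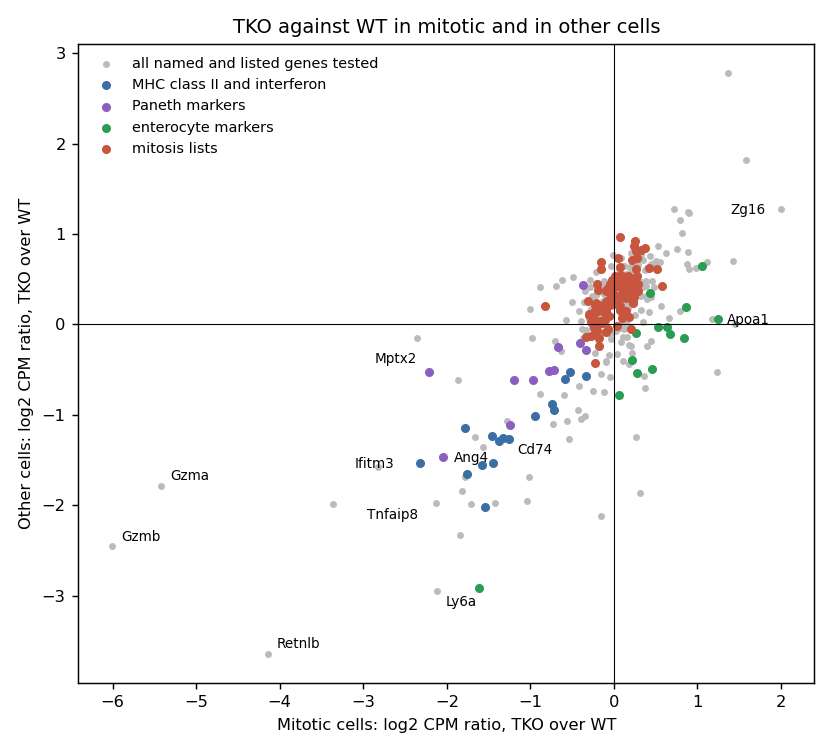
Log2 CPM ratio of TKO over WT for named and listed genes in mitotic cells (horizontal) and in all other cells (vertical), 1 point per gene. Many MHC class II and interferon-related genes lie low on both axes, mitosis genes near 0 on the horizontal axis, and *Gzma* and *Gzmb* far lower in mitotic than in other cells.

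Among other lists, the 7 of 13 T cell markers with enough UMIs were all past 2-fold lower, with *Gzma* at 905 WT and 14 TKO UMIs (95.8 and 2.16 CPM). Most of these passed the UMI minimum through WT, where they are high, which by itself favours a lower call in TKO. Without cells rich in secretory or immune transcripts the *Gzma* log2 ratio went from -5.42 to -1.08. The T cell list that helped define the immune-rich cells holds *Gzma*, so leaving them out removes its UMIs by construction. In WT 836 of the 905 *Gzma* UMIs lay in immune-rich cells. B cell and myeloid markers gave 2 of 5 lower (*Ms4a1* and *Jchain*). *Jchain* had 265 WT and 35 TKO UMIs, so it too passed the UMI minimum through WT. Of these UMIs 208 and 30 lay in immune-rich cells, where it stood at 960.2 and 1072 CPM. Tuft markers gave 3 of 11 lower (*Gng13* and *Ltc4s* among them), stem cell markers 1 of 18 (*Mex3a*) and Wnt targets 1 of 11 (*Sp5*). Enteroendocrine markers gave 3 of 7 higher at low levels (*Chga* at 3.28 and 7.72 CPM, *Gcg* at 6.24 and 16.8 CPM and *Nts*). Enterocyte markers gave *Apoa1* higher and *Fabp1* lower of 14. Of the 352 *Apoa1* UMIs in TKO mitotic cells 252 lay in the 18 enterocyte-rich cells, its log2 ratio was 0.06 without enterocyte-rich or villus-gate cells, and with at least 5 rule genes it turned to -0.83. The enterocyte list that defines those cells holds *Apoa1*, so leaving them out removes its UMIs in part by construction. Goblet markers gave *Zg16* of 12 and absorptive transcription factors *Maf* of 10, at 8.36 and 22.9 CPM. Epithelial markers gave 0 of 11. *Nnt*, which carries a known deletion in the C57BL/6J substrain, stood at 13 and 39.1 CPM in mitotic cells (log2 ratio 1.58, 1.27 to 1.91) and at 11.9 and 41.9 CPM in the other cells. The labels give the background of both libraries as C57BL/6, and a difference in substrain, housing or library cannot be told apart from the genotype for any gene above.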

How the data were processed

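Ileal epithelial cells of WT and TKO mice were profiled by droplet sc-RNASeq (10x 3′ v2 chemistry), 1 library per genotype. Per the labels and the methods of the study, the authors aligned reads to mm10 and made UMI count matrices of called cells with Cell Ranger, and deposited 1 matrix of counts per library (27998 genes). The methods also describe an aggregation that equalizes read depth, and whether the matrices precede it is not given in the sources used here, which bears on UMI totals set side by side. No cell was removed here and no doublet caller was run. UMIs were summed over cells within a library and divided by their total to give CPM. Ratios are log2 of summed UMIs plus a prior of 0.5, scaled to the totals. Ratios and shares have exact binomial and CPM exact Poisson intervals, and the difference of shares has a Newcombe interval. A gene was counted past 2-fold where the summed UMIs reached 50, in mitotic cells for TKO against WT (after subtraction of the median ratio) and in all cells otherwise. No p-value was computed.

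Genes named are the rule genes, *Lgr5* and *Tnfaip8*, the genes furthest apart at 100 CPM or more (15 higher and 10 lower against other cells, 8 in each direction between libraries), the 4 most abundant of each list, and *Ly6a*, *Mki67*, *Krt20*, *Ctnnb1*, *Akt1* and *Nnt*. Other genes were chosen after their values were seen, and some members of the lists are not reported here. The cells and the 26 gene lists (436 of 440 genes found) were chosen with earlier results of these data known. The S-phase and villus gates asked for 4 of 8 genes each. Promoters came from RefSeq (GRCm38.p6), with chromosome 18 left out. The labels name collagenase and dispase for dissociation and call the material enteroids, the methods name DNase I and Dispase, and this was not resolved. Python 3.11.15, numpy 2.4.6, scipy 1.17.1, pandas 2.3.3, statsmodels 0.14.6 and matplotlib 3.10.9 were used, and scripts were tested on simulated counts.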

Additional observations from a re-analysis of the deposited data

Results flagged for a closer look

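For 8 named genes the TKO over WT ratio, relative to the median ratio, lay on one side of 0 in the mitotic cells and on the other side in the other cells, with both counting intervals clear of 0 and a difference of at least 0.5 on the log2 scale. With 1 library per genotype the differences themselves were not tested. They were *Apoa1* (log2 ratio 1.25 in mitotic and 0.06 in other cells, a difference of 1.30 after the medians were subtracted), the bile acid transporter gene *Slc10a2* (1.18 and 0.06, difference 1.23), *Anpep* (0.84 and -0.15, difference 1.10), *Dpep1* (0.66 and 0.07, difference 0.69) and *Fabp6* (0.53 and -0.03, difference 0.66), the histone gene *Hist1h2bc* (difference 0.73), the enteroendocrine gene *Sct* (difference 0.75) and the transcription factor gene *Sox4* (-0.35 and 0.37, difference -0.60). The named genes were chosen in part as those lowest in mitotic cells, where enterocyte genes are many. When the mitotic cells past the villus gate or rich in enterocyte transcripts were left out (537 WT and 291 TKO cells remained), the mitotic ratios were 0.06 for *Apoa1*, 0.05 for *Slc10a2*, -0.29 for *Anpep*, 0.13 for *Dpep1* and 0.28 for *Fabp6*. That step removes UMIs of these genes in part by construction, and the part of doublets or free villus RNA was not tested. Without cells rich in secretory or immune transcripts the *Apoa1* ratio was 1.84 and the *Sct* ratio -0.12.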

How the results depend on the processing

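No paired analysis was possible because each genotype is 1 library of pooled mice, and for the same reason no replicate could be left out. Thinning each cell to 3000 UMIs gave shares of 2.53% (WT) and 3.69% (TKO) in the first draw and 3.02% and 2.86% as the mean of 200 further draws. The shares were 22.7% and 21.2% with at least 3 rule genes, 11.4% and 11.8% with at least 5, and 22.2% and 23.7% with no condition on *Lgr5*. They were 10.7% and 10.1% without cells rich in goblet, Paneth, enteroendocrine, tuft or immune transcripts, with enterocyte-rich cells kept. Genes higher and lower in mitotic than in other cells numbered 190 and 480. They were 335 higher in the thinned cells, 906 higher with no filter on low counts, 304 lower at 20 UMIs and 105 lower at 200 UMIs in mitotic cells, 1149 higher and 793 lower at 1.5-fold, and 108 higher with the median subtracted. Against S-phase cells they were 87 higher and 51 lower, with 37 mitosis genes higher and 0 enterocyte genes lower. Genes higher and lower in TKO mitotic cells numbered 73 and 151. They were 154 and 294 at 20 UMIs, 13 and 54 at 200 UMIs, 1221 and 1839 with no filter and 360 and 404 at 1.5-fold. The lower ones were 49 in the thinned cells and 89 without cells rich in secretory or immune transcripts. By construction the UMI minimums, the thinning and the left-out cells change how many UMIs, genes or cells enter a count, and the 1.5-fold setting and the subtracted median move the threshold or the centre. The ratios of 51 named genes (the rule genes, those furthest apart, *Tnfaip8*, *Ly6a* and *Mki67*) were recomputed, and of 1326 values 776 stayed inside the counting interval of the reported value, 534 lay outside it, and 16 values past 2-fold changed direction. *Apoa1* in TKO over WT was -0.83 with at least 5 rule genes. Mitotic over S-phase cells, the log2 ratio was in WT 0.34 for *AA467197*, 0.30 for *Dpep1*, 0.19 for *Fcgbp*, 0.70 for *Ly6a*, 0.00 for *Mep1b*, 0.07 for *Sepp1* and 0.14 for *Zg16*, and in TKO 1.02 for *AA467197* and for *Mep1b*, 1.08 for *Dpep1*, 0.23 for *Anpep*, 0.02 for *Fabp2*, 0.47 for *Slc10a2*, 0.55 for *Slc13a1* and 0.04 for *Zg16*. The cause of these changes was not tested. The S-phase comparison, the 200 draws, the subtracted median and the removal of rich cells were chosen after seeing the data.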
